A study of Mus musculus with 15 samples.

Results

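Messenger RNA of 10 orphan nuclear receptor genes of the gonad was followed in mouse granulosa cells, the somatic cells that surround the oocyte and make estradiol. The genes were the NR5A receptors Nr5a1 and Nr5a2, the corepressor Nr0b1, the NR4A receptors Nr4a1, Nr4a2 and Nr4a3, the COUP-TF receptors Nr2f1, Nr2f2 and Nr2f6, and the testicular receptor Nr2c1. They were taken by symbol from a named list, and all 10 were among the 24490 genes of the count files. Primary granulosa cells of RjOrl:SWISS females aged 8 weeks had been transfected with 30 pmol of small interfering RNA (siRNA) using Lipofectamine RNAiMax. The 15 libraries formed 5 groups of 3: Foxl2 siRNA at 54 h, scrambled siRNA at 54 h, Foxl2 siRNA at 30 h, Esr2 siRNA at 30 h and scrambled siRNA at 30 h. Foxl2 encodes a forkhead transcription factor of the granulosa lineage and Esr2 encodes estrogen receptor beta. The series title asks which genes these factors act on. The titles give the 2 times, whereas the extraction protocol names 30 h alone. Each siRNA dose was a pool of 3 siRNAs; the labels name 4 pools per target, list the same catalogue numbers for both targets and do not say which pool a library received. Whether the 3 replicates are independent cultures is not stated, so p-values reflect library-to-library spread that may be technical.

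Nuclear receptors are transcription factors with a DNA-binding domain and a ligand-binding domain, and those called orphan were found before any hormone was known for them. Nr5a1 (steroidogenic factor 1) and Nr5a2 (liver receptor homolog 1) bind the same extended half-site as monomers, and in granulosa cells they act on genes of steroid synthesis, follicle growth and ovulation. Nr0b1 (DAX-1) lacks the usual DNA-binding domain and represses NR5A receptors, the NR4A genes are rapidly induced by gonadotropin and cyclic AMP signalling, and the COUP-TF genes are mostly known in the gonad from interstitial cells.

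Gene counts per library ran between 44976872 and 59550065, and 14907 genes passed the filter on low counts. The silenced genes were checked first. Foxl2 had 33.7, 57.5 and 25.2 CPM (counts relative to library size, scaled by trimmed mean of M values, TMM) in the 54 h Foxl2 siRNA libraries, against 189, 154 and 166 CPM in the scrambled ones. At 30 h it had 33.8, 28.4 and 65.4 CPM under Foxl2 siRNA, against 174, 152 and 143 CPM under scrambled siRNA. Esr2 had 12.9, 14.5 and 13.9 CPM under Esr2 siRNA, against 60.6, 60.4 and 61.6 CPM under scrambled siRNA. Each target was thus lower than in every matched scrambled library, with the most Foxl2 left in replicate 2 at 54 h and replicate 3 at 30 h. Each siRNA group also lay below the scrambled libraries for the other target. Esr2 averaged 27.7 ± 18.8 CPM under Foxl2 siRNA at 54 h and 68.8 ± 4.85 CPM under scrambled siRNA, a log2 change of -1.31 ± 0.34 with an edgeR adjusted p of 0.00854 (0.0652 with only the compared groups). The 30 h means of Esr2 were 33.2 ± 10.8 CPM under Foxl2 siRNA and 60.9 ± 0.651 CPM under scrambled siRNA, with an edgeR adjusted p of 0.109. That value was 0.0436 with only the compared groups and 0.0443 to 0.32 without 1 library. The adjusted p was 0.0472 by DESeq2 and 0.000145 by limma-voom. Foxl2 averaged 118 ± 8.43 CPM under Esr2 siRNA and 157 ± 16.1 CPM under scrambled siRNA, with an edgeR adjusted p of 0.539. For this change edgeR gave 0.0348 with only the compared groups and 0.525 to 0.796 without 1 library, and limma-voom gave 0.0404. All 15 granulosa markers on a list had counts in every library, Inha between 1410 and 2410 CPM but Fshr between 0.215 and 0.948 CPM and Cyp19a1 between 0.0385 and 3.89 CPM. Of the theca markers, Insl3 was at 0 in 6 libraries and never above 0.0674 CPM, and Cyp17a1 never exceeded 0.265 CPM.

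Ordered by level per length in the scrambled libraries at 30 h, the NR5A pair stood at the top. Nr5a1 averaged 36.5 ± 0.766 CPM per kilobase of exon and Nr5a2 31.0 ± 0.841 (SD, n = 3 here and below). Nr2f6 followed with 24.0 ± 1.37, and then came a step down to Nr2c1 with 5.41 ± 0.193. The ranges of these 4 genes did not overlap with those of their neighbours. Nr4a1, with 3.53 ± 1.10, and Nr2f2, with 3.15 ± 0.523 CPM per kilobase, did overlap. Nr4a2 averaged 0.847 ± 0.0178 CPM per kilobase. Nr2f1 with 0.165 ± 0.108 and Nr4a3 with 0.123 ± 0.0173 CPM per kilobase overlapped at the low end. Nr0b1 had no count in any of the 15 libraries, which allows a level of up to 0.0504 to 0.0667 CPM depending on the library (3 counts, counting error only).

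RefSeq promoter windows (250 bases before to 50 after a transcript start, GRCm38.p6) were found for 9 of the 10 genes; Nr5a1 is named only. The windows of the 2 genes with a call at 54 h and a window are printed because they hold the sequence next to the starts of the transcripts that changed. For Nr5a2, which has 2 windows, the first lies at chr1:136960399-136960698 and the second at chr1:136953581-136953880, both on the minus strand. The window of Nr2f6 lies at chr8:71381903-71382202 on the minus strand. Capitals mark motif matches.
Nr5a2 window 1: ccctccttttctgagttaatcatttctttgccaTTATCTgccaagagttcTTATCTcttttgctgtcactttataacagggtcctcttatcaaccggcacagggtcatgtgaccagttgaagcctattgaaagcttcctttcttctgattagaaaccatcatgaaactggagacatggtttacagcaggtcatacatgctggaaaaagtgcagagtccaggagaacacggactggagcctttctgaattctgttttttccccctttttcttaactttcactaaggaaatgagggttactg
Nr5a2 window 2: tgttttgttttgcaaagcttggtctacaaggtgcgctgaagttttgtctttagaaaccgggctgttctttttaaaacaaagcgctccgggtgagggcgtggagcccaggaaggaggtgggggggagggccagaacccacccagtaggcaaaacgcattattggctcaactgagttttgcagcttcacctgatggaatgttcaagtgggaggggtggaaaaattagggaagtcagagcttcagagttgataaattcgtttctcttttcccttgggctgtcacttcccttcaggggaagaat
Nr2f6 window: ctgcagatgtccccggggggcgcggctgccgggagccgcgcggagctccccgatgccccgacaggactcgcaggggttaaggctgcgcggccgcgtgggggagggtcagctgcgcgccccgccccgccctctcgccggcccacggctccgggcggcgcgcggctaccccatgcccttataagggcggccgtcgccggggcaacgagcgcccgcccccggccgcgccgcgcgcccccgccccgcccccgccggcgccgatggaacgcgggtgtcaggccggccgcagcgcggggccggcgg
On both strands, 6 motifs were searched: the NR5A site CAAGGTCA, the NR4A site AAAGGTCA, the cyclic AMP response element TGACGTCA, the forkhead motifs GTAAACA and GTCAAGG, and the GATA motif AGATAA. The capitals in Nr5a2 window 1 are 2 GATA motifs read on the opposite strand, from -217 to -212 and from -200 to -195 relative to the start. No motif was matched in Nr5a2 window 2 or in the Nr2f6 window. Among the other members' windows, the one match was a forkhead motif GTAAACA in the second window of Nr2f1, from -148 to -142 on the opposite strand. Of all 32851 windows, 11.2% hold the GATA motif, 3.65% GTAAACA, 3.18% GTCAAGG, 1.79% the cyclic AMP element, 1.56% the NR5A site and 1.51% the NR4A site. A match of letters is a description and not a bound site.

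Of the 9 genes tested, 3 were called at 54 h of Foxl2 siRNA and 1 at 30 h, from the NR5A pair and Nr2f6. A call means an adjusted p below 0.05 in the quasi-likelihood test of edgeR, adjusted by the Benjamini-Hochberg method over all 14907 genes. At 54 h, Nr5a1 and Nr5a2 fell and Nr2f6 rose, where 38.8% of all genes were called. At 30 h Nr5a1 fell, where 13.0% of all genes were called. Esr2 siRNA gave no call among the 9, with 4.23% of all genes called, although 2 had an unadjusted p below 0.05, DESeq2 called 2 and limma-voom 3. Groups did not overlap for 3 of the 9 genes at 54 h, 1 at 30 h and 2 under Esr2 siRNA, against 51.4%, 33.0% and 29.5% of all genes. The median log2 change of the 9 genes was -0.06 at 54 h, -0.06 at 30 h and 0.02 under Esr2 siRNA, and that of all genes was -0.01 in each.

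**Figure D1:**
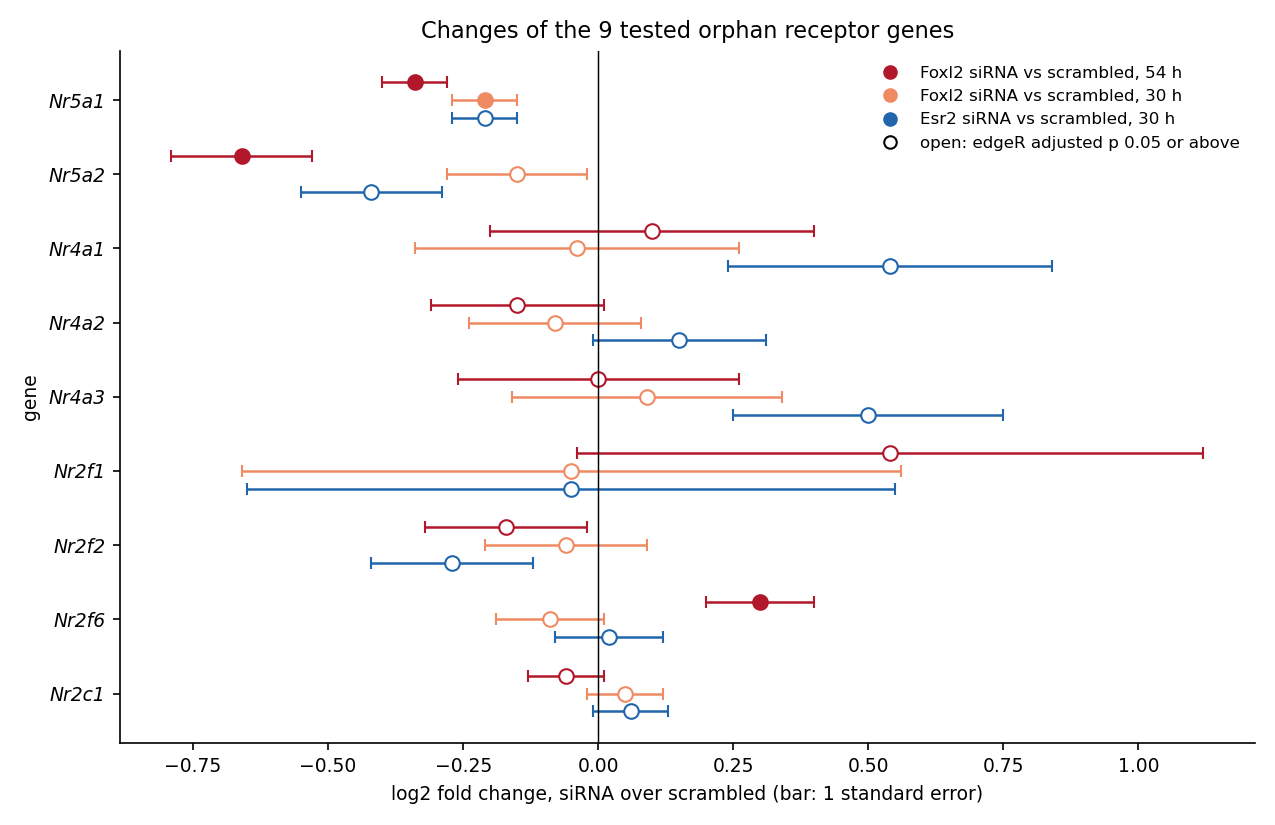
Log2 fold change of each of the 9 tested genes, siRNA over scrambled, with 1 standard error as bars; filled points have an edgeR adjusted p below 0.05. Nr5a1 and Nr5a2 lie left of 0 in all 3 comparisons and Nr2f6 lies right of 0 at 54 h with 0.30. Filled are Nr5a1 at both times of Foxl2 siRNA, and Nr5a2 and Nr2f6 at 54 h. All other points are open.

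Nr5a1, on chromosome 2 (chr2:38692656-38714542, minus strand, GRCm38), fell modestly under Foxl2 siRNA. It had 122, 126 and 119 CPM in the Foxl2 siRNA libraries at 54 h, against 163, 151 and 151 CPM in the scrambled ones. All 3 siRNA libraries lay below all 3 scrambled libraries, 123 ± 3.59 against 155 ± 7.08 CPM on average. The log2 change was -0.34 ± 0.06 (SE), 1.26-fold lower, with an edgeR adjusted p of 0.000455. It stayed called when any 1 library was left out. At 30 h Nr5a1 had 140, 124 and 138 CPM under Foxl2 siRNA, against 155, 151 and 158 CPM under scrambled siRNA. The groups again did not overlap, and the log2 change of -0.21 ± 0.06 had an edgeR adjusted p of 0.0274. That call at 30 h was lost without any of 4 libraries: adjusted p was 0.0993 without Foxl2 siRNA replicate 2, and 0.107, 0.0671 and 0.135 without scrambled replicates 1, 2 and 3. It was also lost with no filter on low counts (0.0662) and when only the compared groups entered the fit (0.111).

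Under Esr2 siRNA at 30 h Nr5a1 had 138, 133 and 131 CPM, against 155, 151 and 158 CPM in the same scrambled libraries. All 3 Esr2 siRNA libraries lay below the scrambled ones, and the log2 change of -0.21 ± 0.06 missed the threshold with an edgeR adjusted p of 0.0514. DESeq2 (adjusted p 0.00762), limma-voom (0.000674) and edgeR on the compared groups alone (0.0386) called it; without 1 library edgeR's adjusted p was 0.0942 to 0.228. Both 30 h comparisons use the same 3 scrambled libraries. Between Foxl2 siRNA and Esr2 siRNA at 30 h, Nr5a1 averaged 134 ± 8.44 and 134 ± 3.52 CPM, a log2 difference of 0.00 ± 0.06 with an edgeR adjusted p of 0.978. In that comparison 20.4% of all genes were called and none of the 9 was, with 0 at an unadjusted p below 0.05, 0 by DESeq2 and 1, Nr5a2, by limma-voom.

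Nr5a2, on chromosome 1 (chr1:136842571-136960448, minus strand), had a larger log2 change than its paralog at 54 h and a wider range over the libraries, 100 to 207 CPM against 119 to 163 CPM for Nr5a1. It had 134, 100 and 131 CPM under Foxl2 siRNA at 54 h, against 207, 177 and 193 CPM under scrambled siRNA. The groups did not overlap, the means being 122 ± 18.7 and 192 ± 15.2 CPM. The log2 change was -0.66 ± 0.13, 1.58-fold lower, with an edgeR adjusted p of 0.00139, and it stayed called when any 1 library was left out. The 30 h libraries had 186, 174 and 135 CPM under Foxl2 siRNA, against 178, 183 and 188 CPM under scrambled siRNA. Here the groups overlapped: replicate 1 lay inside the scrambled range and replicate 3 far below it. The log2 change was -0.15 ± 0.13 with an edgeR adjusted p of 0.490, and it was -0.02 without Foxl2 siRNA replicate 3.

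The change of Nr5a2 under Foxl2 siRNA at 54 h minus that at 30 h was -0.51 ± 0.18 on the log2 scale. Its unadjusted p was 0.0136 and its edgeR adjusted p 0.350, so a difference between the times was not called; limma-voom called it with -0.49 and an adjusted p of 0.0359. For Nr5a1 the same difference was -0.13 ± 0.08 with an edgeR adjusted p of 0.627. In this test of the difference 0.00671% of all genes, a single gene, were called and none of the 9 was, although 2 had an unadjusted p below 0.05; DESeq2 called 0 and limma-voom 1, Nr5a2. Without Foxl2 siRNA replicate 2 at 54 h, 904 genes were called but none of the 9.

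Under Esr2 siRNA Nr5a2 had 137, 150 and 124 CPM, against 178, 183 and 188 CPM under scrambled siRNA. Every Esr2 siRNA library lay below every scrambled library, 137 ± 13.2 against 183 ± 4.96 CPM on average. The log2 change was -0.42 ± 0.13 with an edgeR adjusted p of 0.0912, past the threshold by DESeq2 (0.0443), limma-voom (0.000161) and edgeR on the compared groups alone (0.0209). Against Esr2 siRNA, Foxl2 siRNA at 30 h gave a log2 difference of 0.27 ± 0.13 for Nr5a2 with an edgeR adjusted p of 0.156. Without Foxl2 siRNA replicate 3 that difference was 0.39 with an adjusted p of 0.0315, and limma-voom gave 0.41 with an adjusted p of 0.00496.

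**Figure D2:**
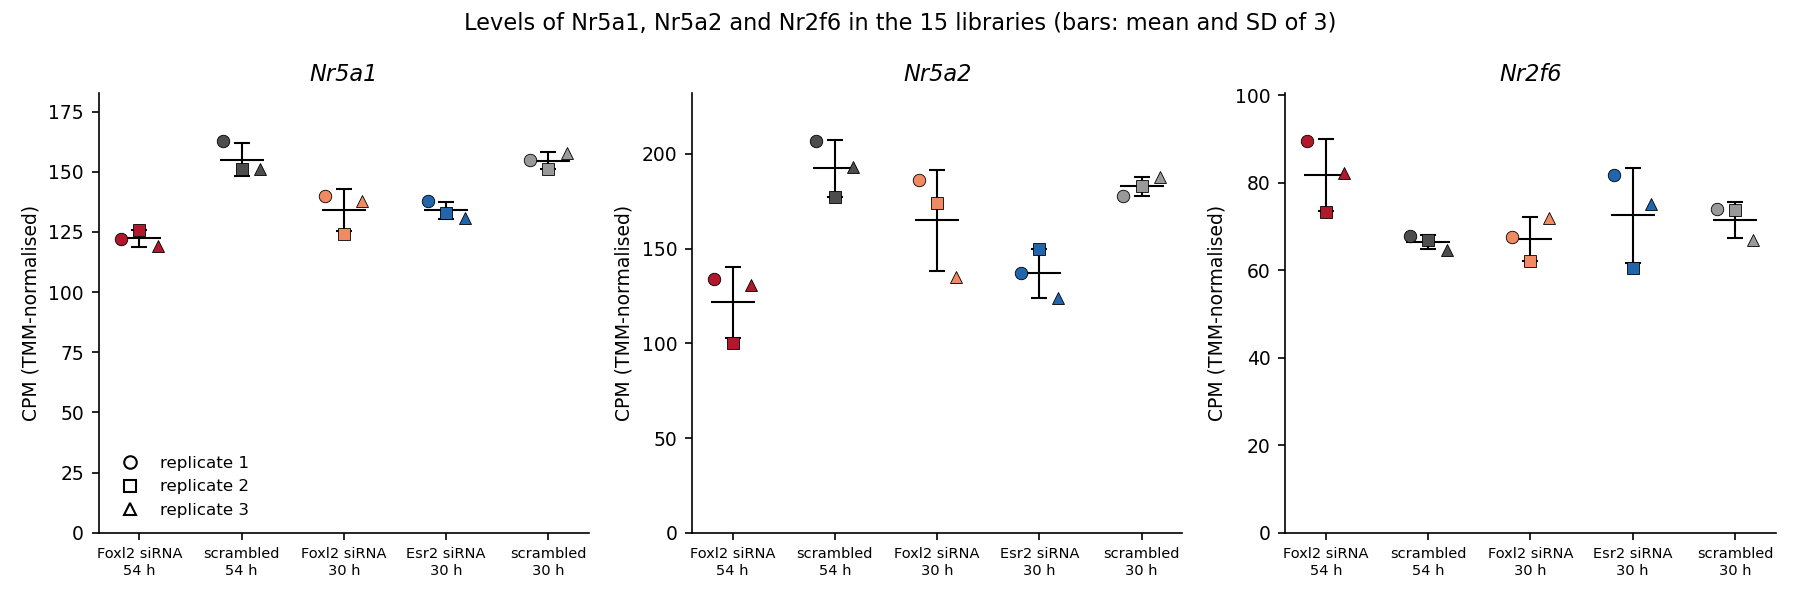
CPM of Nr5a1, Nr5a2 and Nr2f6 in each library by group, with a marker shape per replicate number and the mean and SD of 3 libraries. At 54 h all Foxl2 siRNA points of Nr5a1 (119 to 126 CPM) and Nr5a2 (100 to 134 CPM) lie below the scrambled points, and those of Nr2f6 (73.2 to 89.6 CPM) lie above them.

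Within the Foxl2 siRNA groups, Nr5a2 was not lowest where the least Foxl2 was left. In each Foxl2 siRNA group the library with the lowest Nr5a2 was the one with the most Foxl2 and the most Esr2. At 54 h this was replicate 2, with 100 CPM of Nr5a2, 57.5 CPM of Foxl2 and 49.3 CPM of Esr2, where the other two had 18.0 and 15.7 CPM of Esr2. At 30 h it was replicate 3, with 135 CPM of Nr5a2, 65.4 CPM of Foxl2 and 45.5 CPM of Esr2, where the other two had 29.2 and 25.0 CPM of Esr2. Nr5a1 was not ordered in this way: its lowest library, with 119 CPM at 54 h and 124 CPM at 30 h, was the one with the least Foxl2. The libraries with the most Foxl2 also differed most from the rest of their group over the genes as a whole. Chi-square per degree of freedom against the other libraries was 122.24 and 116.95 for replicate 2 at 54 h, and 44.39 between those others. For replicate 3 at 30 h it was 63.52 and 86.72, and 47.11 between the others. How many genes share the order of Nr5a2 was not tested. The CPM ratio of Nr5a2 to Nr5a1 was 1.09, 0.793 and 1.10 under Foxl2 siRNA at 54 h, against 1.27, 1.17 and 1.28 under scrambled siRNA. Under Foxl2 siRNA at 30 h it was 1.32, 1.40 and 0.982, under Esr2 siRNA 0.997, 1.13 and 0.949, and under scrambled siRNA 1.14, 1.21 and 1.19. The ratio was thus lower than in the matched scrambled libraries at 54 h and under Esr2 siRNA, but not in 2 of the 3 Foxl2 siRNA libraries at 30 h; the ratio was not tested.

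**Figure D3:**
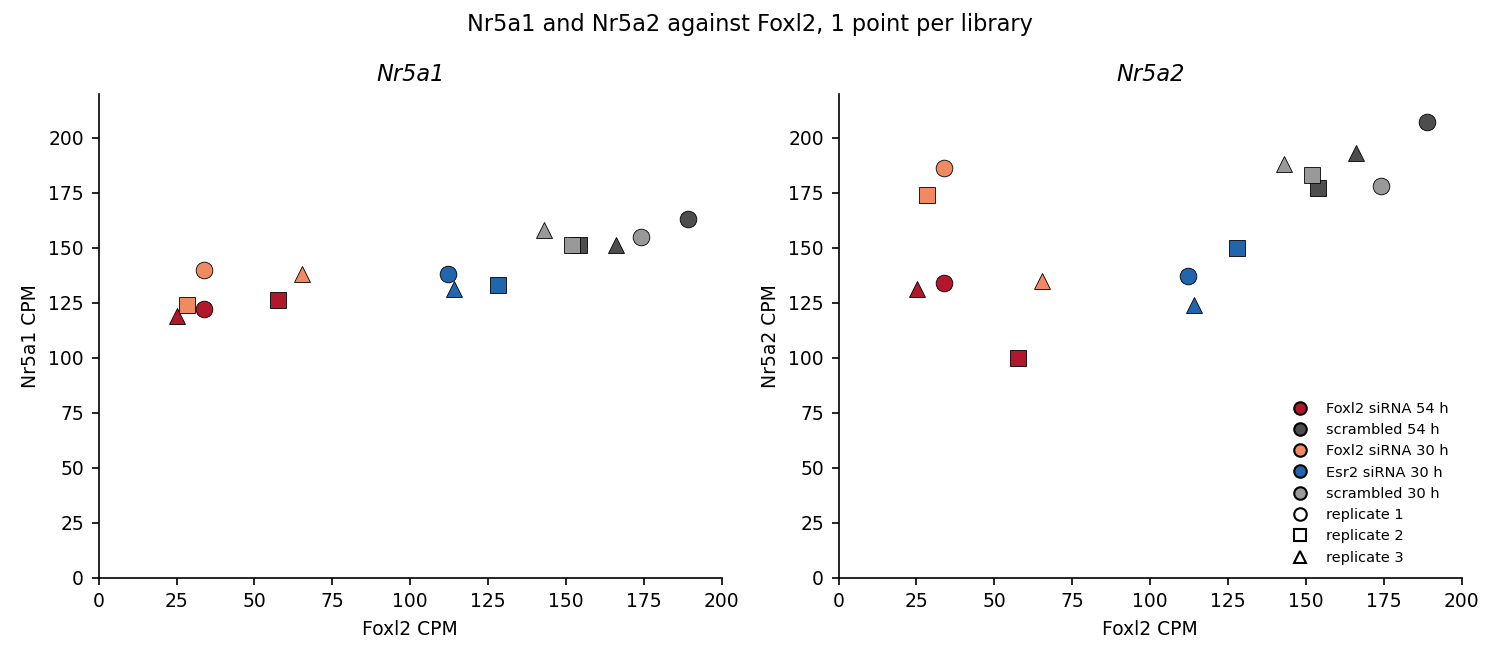
CPM of Nr5a1 and Nr5a2 against CPM of Foxl2, 1 point per library, colour for group and shape for replicate number. Among the 6 Foxl2 siRNA points, the 2 with the most Foxl2 (57.5 and 65.4 CPM) have 100 and 135 CPM of Nr5a2.

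In these bulk samples, fewer cells of a type and less RNA per cell cannot be told apart. The summed level of the 15 granulosa markers was 3530 to 4670 CPM under Foxl2 siRNA at 54 h, against 4250 to 4410 CPM under scrambled siRNA, so the ranges overlapped. The sum of 13 ovarian surface epithelium markers was 834 to 931 CPM, against 408 to 474 CPM, and 8 of the 13 were called higher. Of these, Msln ranged from 9.34 to 140 CPM over the 15 libraries and Upk3b from 7.53 to 167 CPM. The sum of 12 Sertoli cell markers was 157 to 370 CPM, against 65.2 to 71.1 CPM. Of the 10 tested, 8 were called higher, and Dmrt1 was at 0 in 14 libraries. Among all 14907 tested genes, 2755 were called higher in this comparison. At 30 h of Foxl2 siRNA the granulosa sum was 3670 to 4740 CPM, against 4180 to 4260 CPM under scrambled siRNA. The surface epithelium sum was 513 to 544 CPM there, against 421 to 450 CPM, and the Sertoli sum 116 to 200 CPM, against 71.9 to 76.9 CPM, so neither overlapped. Under Esr2 siRNA the granulosa sum of 3380 to 3720 CPM lay below all 3 scrambled libraries, with a median log2 change of -0.33 over the 15 markers. The 1 marker called lower there was the silenced Esr2 itself. Both Foxl2 and Esr2 are on the granulosa list. The Sertoli sum under Esr2 siRNA was 79.6 to 93.6 CPM, also above all 3 scrambled libraries, with 0 of the 10 tested called. The surface epithelium sum under Esr2 siRNA, 444 to 462 CPM, overlapped the scrambled range. The part of these shifts in the NR5A changes was not tested.

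Genes known from other work as NR5A targets moved in both directions. On a list of 22, 19 were tested. Of these, 6 rose and 5 fell at 54 h of Foxl2 siRNA, and 4 rose and 1 fell at 30 h. Under Esr2 siRNA 2 rose and 1 fell. The 3 comparisons called 38.8%, 13.0% and 4.23% of all tested genes. The list's median log2 change was 0.04, 0.17 and 0.18 in that order, against -0.01 for all genes. At 30 h of Foxl2 siRNA, 2 rose without its replicate 1 and 5 fell without its replicate 3. At 54 h the testis-determining factor gene Sox9 averaged 71.4 CPM under Foxl2 siRNA and 8.51 CPM under scrambled siRNA, a log2 change of 3.07 ± 0.40. Fdxr, the reductase that supplies electrons to mitochondrial steroid enzymes, rose by 0.58 ± 0.11 at 54 h and 0.57 ± 0.11 at 30 h on the log2 scale. Cyp11a1, the side-chain cleavage enzyme that begins steroid synthesis, averaged 4060 ± 437 CPM under Foxl2 siRNA at 30 h, against 2530 CPM, a log2 change of 0.68 ± 0.14. These 3 genes went up while Nr5a1 went down.

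Those named among the targets that fell were 2 hormone receptor genes and the aromatase gene. The luteinizing hormone receptor gene Lhcgr averaged 0.0684 CPM under Foxl2 siRNA at 54 h and 0.753 CPM under scrambled siRNA, a log2 change of -3.39 ± 0.34 with the siRNA level near the floor of 3 counts. The prolactin receptor gene Prlr averaged 29.5 and 93.7 CPM in the same groups, a log2 change of -1.66 ± 0.19. Cyp19a1, which encodes aromatase, averaged 0.394 CPM under Foxl2 siRNA at 30 h and 2.86 CPM under scrambled siRNA, a log2 change of -2.84 ± 0.61. All 3 had edgeR adjusted p-values of 0.00898 or less; that of Cyp19a1 at 30 h was 0.0647 with only the compared groups in the fit. Under Esr2 siRNA the ferredoxin gene Fdx1 rose by 0.62 ± 0.15 on the log2 scale. Por, the P450 reductase, rose by 0.38 ± 0.10, with an edgeR adjusted p of 0.0483. Both calls were lost without Esr2 siRNA replicate 1 (0.176 and 0.186) or 3 (0.0651 and 0.152), or without scrambled replicate 1 (0.117 and 0.142), 2 (0.0925 and 0.134) or 3 (0.124 and 0.120). Lhcgr fell there too, with a log2 change of -1.68 ± 0.31.

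Among 15 tested partners and upstream regulators of the NR5A genes, 4 rose and 5 fell at 54 h of Foxl2 siRNA. At 30 h 3 rose and 1 fell, and none was called under Esr2 siRNA. The shares of all tested genes called were 38.8%, 13.0% and 4.23% in that order. Under Esr2 siRNA the list's median log2 change was -0.12, and 2 fell without Esr2 siRNA replicate 2. At 54 h, 3 fell without Foxl2 siRNA replicate 1, and at 30 h 3 fell without its replicate 3. Wt1, which activates the Nr5a1 promoter in the early mouse gonad, averaged 298 ± 52.5 CPM under Foxl2 siRNA at 54 h and 108 CPM under scrambled siRNA, a log2 change of 1.46 ± 0.16. Emx2, a homeobox gene needed for the gonad to form, rose by 0.69 ± 0.08 at 54 h and 0.49 ± 0.08 at 30 h. The polycomb gene Cbx2, which acts upstream of Nr5a1 in mice, fell at 54 h with a log2 change of -0.56 ± 0.13. The silenced gene Foxl2 is itself on this list and is 1 of the genes that fell at both times. The regulators Wt1 and Emx2 thus went up in the libraries in which Nr5a1 went down.

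The NR5A repressor Nr0b1 (chrX:86191764-86195947, plus strand) was listed at 0 in every library, so no change could be measured. Its relative Nr0b2 (small heterodimer partner) was tested. It was not called in any comparison with scrambled libraries, with log2 changes of 0.40 ± 0.16 at 54 h and 0.41 ± 0.16 at 30 h of Foxl2 siRNA and -0.09 ± 0.16 under Esr2 siRNA. Among 17 tested nuclear receptor coregulators, 1 rose and 4 fell at 54 h of Foxl2 siRNA, where 38.8% of all tested genes were called. At 30 h 2 fell, beside 13.0% of all genes called. None was called under Esr2 siRNA, beside 4.23% of all genes. Without Foxl2 siRNA replicate 3 at 30 h, 2 rose; at 54 h, 2 fell without Foxl2 siRNA replicate 3 or any 1 scrambled library. Nrip1, a corepressor needed for ovulation in mice, averaged 50.9 ± 4.52 CPM under Foxl2 siRNA at 54 h and 86.2 CPM under scrambled siRNA. Its log2 change was -0.76 ± 0.09 at 54 h and -0.54 ± 0.09 at 30 h. Smarcd3, a subunit of the SWI/SNF chromatin remodelling complex, fell with log2 changes of -1.66 ± 0.31 and -1.19 ± 0.30 at those times. Prox1, a corepressor of Nr5a2 in liver cells, rose at 54 h by 0.78 ± 0.28 with an edgeR adjusted p of 0.0430. The Prox1 call was lost with no filter on low counts (0.0503) and without Foxl2 siRNA replicate 1 (0.151) or 3 (0.0523) or scrambled replicate 2 (0.146) or 3 (0.132), and the Smarcd3 call at 30 h without Foxl2 siRNA replicate 1 (0.0913) or 2 (0.0925) or scrambled replicate 1 (0.0707) or 3 (0.0628).

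The NR4A genes, whose products bind a related half-site and in granulosa cells respond to gonadotropins within a short time, were not called in any comparison. Nr4a1 (chr15:101254269-101274795, plus strand) had 10.6, 11.0 and 8.65 CPM under Foxl2 siRNA at 54 h, against 9.39, 10.0 and 8.93 CPM under scrambled siRNA. At 30 h it had 12.6, 13.2 and 10.3 CPM under Foxl2 siRNA and 14.1, 29.2 and 10.9 CPM under Esr2 siRNA, against 16.8, 9.48 and 10.9 CPM under scrambled siRNA. The groups overlapped in each comparison, and 1 library, Esr2 siRNA replicate 2, stood above the other 14. The log2 changes were 0.10 ± 0.30 at 54 h, -0.04 ± 0.30 at 30 h and 0.54 ± 0.30 under Esr2 siRNA, with an edgeR adjusted p of 0.390 in the last. Without Esr2 siRNA replicate 2 the last was 0.01.

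Nr4a2 (chr2:57106830-57124003, minus strand) had 3.23, 3.22 and 3.27 CPM under Foxl2 siRNA at 54 h, against 3.39, 4.19 and 3.22 CPM under scrambled siRNA. The 30 h libraries had 3.15, 3.79 and 2.81 CPM under Foxl2 siRNA and 3.63, 4.67 and 3.14 CPM under Esr2 siRNA, against 3.52, 3.37 and 3.42 CPM under scrambled siRNA. Esr2 siRNA replicate 2 was again the highest library and the groups overlapped. The log2 changes were -0.15 ± 0.16, -0.08 ± 0.16 and 0.15 ± 0.16 in the order given for Nr4a1.

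Nr4a3 (chr4:48045153-48086447, plus strand), the least abundant of the trio with 23 to 74 counts per library, had 0.594, 0.590 and 0.578 CPM under Foxl2 siRNA at 54 h, against 0.421, 0.645 and 0.692 CPM under scrambled siRNA. At 30 h it had 0.767, 0.869 and 0.728 CPM under Foxl2 siRNA and 0.928, 1.45 and 0.762 CPM under Esr2 siRNA, against 0.669, 0.684 and 0.855 CPM under scrambled siRNA. Here too Esr2 siRNA replicate 2 was highest and the groups overlapped. Its log2 changes were 0.00 ± 0.26, 0.09 ± 0.25 and 0.50 ± 0.25, the last with an edgeR adjusted p of 0.321 and a value of 0.20 without that library.

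Some other immediate early genes, the class that stimuli induce without new protein synthesis, were also highest in the library with the most NR4A transcripts, and others were not. Of 27 such genes, 7 had their highest level of all 15 libraries in Esr2 siRNA replicate 2 (25.9%), as did 1222 of the 14907 tested genes (8.20%). Among the 3 Esr2 siRNA libraries it was the highest for 17 of the 27 (63.0%, against 39.3% of all tested genes) and the lowest for 7 (25.9%, against 40.0%). The summed level of the 27 genes was 2400 CPM in it, below the 2500 CPM of Foxl2 siRNA replicate 2 at 30 h. The phosphatase gene Dusp1 had 78.0, 114 and 74.3 CPM under Esr2 siRNA, against 73.4, 50.8 and 56.2 CPM under scrambled siRNA. Fos, the usual partner of Jun in the AP-1 factor, had 14.9, 32.4 and 13.8 CPM under Esr2 siRNA, against 32.1, 20.8 and 18.9 CPM under scrambled siRNA. Scrambled replicate 1 at 30 h was thus nearly as high for Fos, and it was second to Esr2 siRNA replicate 2 for Nr4a1. Egr1, named after its values were seen, had 82.2 CPM in the one and 85.1 CPM in the other. Junb, another AP-1 gene named after its values were seen, had its lowest level of the 3 Esr2 siRNA libraries in replicate 2. Its levels were 53.1, 43.6 and 51.2 CPM under Esr2 siRNA, against 47.4, 43.2 and 40.1 CPM under scrambled siRNA.

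Other immediate early genes were called in both directions. At 54 h of Foxl2 siRNA 6 of the 27 rose and 3 fell, at 30 h 5 rose and 4 fell, and under Esr2 siRNA 1 rose. Of all tested genes, 38.8%, 13.0% and 4.23% were called in these comparisons. At 30 h, 2 or 3 rose without any 1 library except Foxl2 siRNA replicate 3, and 2 fell without Foxl2 siRNA replicate 1 or any 1 scrambled library; under Esr2 siRNA 2 rose without its replicate 2 or scrambled replicate 1. Csrnp1 averaged 43.7 ± 2.85 CPM under Foxl2 siRNA at 54 h and 19.9 CPM under scrambled siRNA, a log2 change of 1.14 ± 0.07. Atf3, a stress-induced transcription factor gene, rose by 1.71 ± 0.14 at 54 h and by 0.69 ± 0.14 at 30 h on the log2 scale. Fos fell at 54 h, with 4.14 ± 1.69 CPM against 20.3 CPM and a log2 change of -2.28 ± 0.39. Crem, a cyclic AMP-responsive gene, had log2 changes of -0.70 ± 0.12 at 54 h and -0.64 ± 0.12 at 30 h. Maff fell at 30 h, with -0.41 ± 0.08. Under Esr2 siRNA the antiproliferative gene Btg2 averaged 223 ± 40.7 CPM, against 120.0 CPM, a log2 change of 0.90 ± 0.16.

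**Figure D4:**
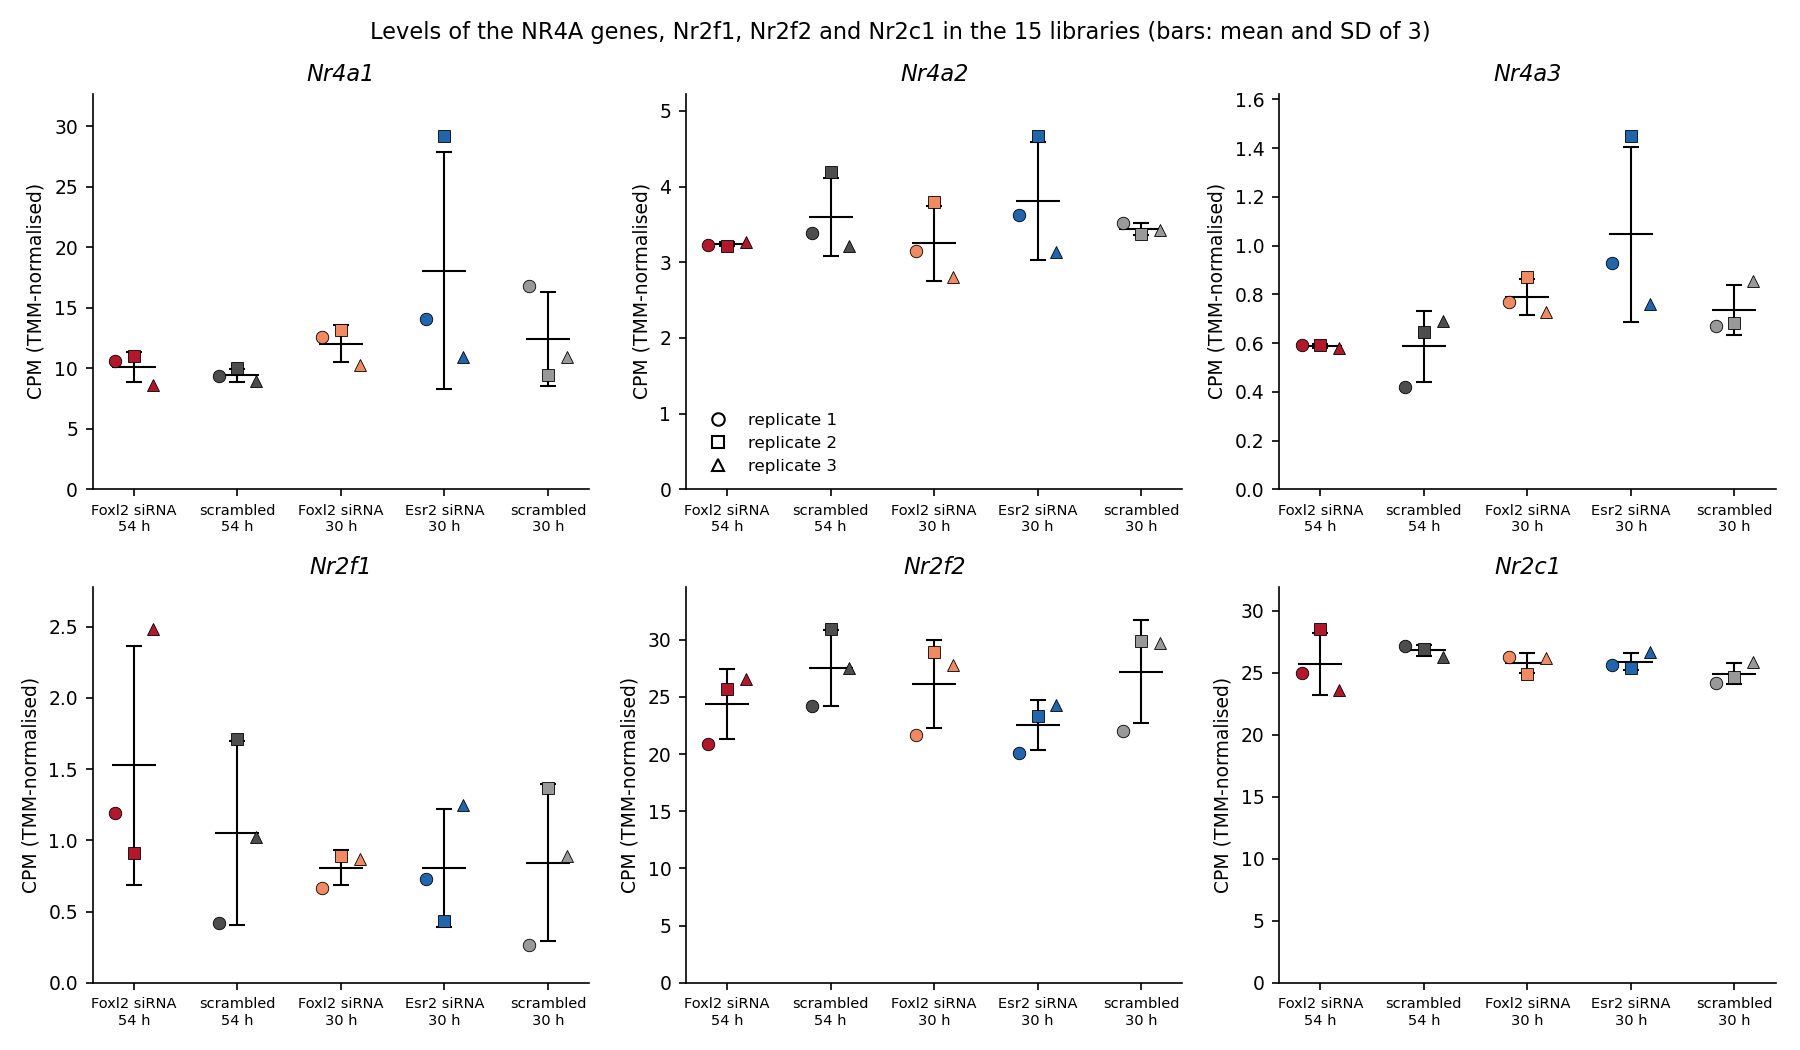
CPM of the 3 NR4A genes, Nr2f1, Nr2f2 and Nr2c1 in each library by group, with a marker shape per replicate number and the mean and SD of 3 libraries; each panel has its own scale from 0. The square of Esr2 siRNA is the highest point for all 3 NR4A genes, at 29.2, 4.67 and 1.45 CPM, and the circle is the lowest Nr2f2 point in every group.

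The COUP-TF genes Nr2f1 and Nr2f2 were not called in any comparison; in the mouse ovary Nr2f2 is known mainly from theca and stromal cells. Nr2f1 (chr13:78188973-78199757, minus strand) had 1.19, 0.910 and 2.48 CPM under Foxl2 siRNA at 54 h, against 0.421, 1.71 and 1.02 CPM under scrambled siRNA. The 30 h libraries had 0.666, 0.889 and 0.866 CPM under Foxl2 siRNA and 0.729, 0.430 and 1.25 CPM under Esr2 siRNA, against 0.268, 1.37 and 0.889 CPM under scrambled siRNA. The groups overlapped, and the highest library held 9.29 times the level of the lowest, the widest span of the 9 genes. The log2 changes were 0.54 ± 0.58 at 54 h, -0.05 ± 0.61 at 30 h and -0.05 ± 0.60 under Esr2 siRNA, and the first was 0.00 without Foxl2 siRNA replicate 3.

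Nr2f2 (chr7:70351944-70366735, minus strand) had 20.9, 25.7 and 26.6 CPM under Foxl2 siRNA at 54 h, against 24.2, 30.9 and 27.5 CPM under scrambled siRNA. At 30 h it had 21.7, 28.9 and 27.8 CPM under Foxl2 siRNA and 20.1, 23.3 and 24.3 CPM under Esr2 siRNA, against 22.0, 29.9 and 29.7 CPM under scrambled siRNA. The groups overlapped, and replicate 1 was the lowest of the 3 in all 5 groups, as it was for 226 of the tested genes (1.52%). The log2 changes were -0.17 ± 0.15, -0.06 ± 0.15 and -0.27 ± 0.15 in the same order as for Nr2f1, the last with an edgeR adjusted p of 0.384. Limma-voom called the last with an adjusted p of 0.0177.

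Within groups, both genes tended to be ordered like the summed theca and stroma markers. That sum, over the 15 genes of the list, led by Col1a1 and Col1a2, was 407, 978 and 1360 CPM under Foxl2 siRNA at 54 h, against 379, 1110 and 761 CPM under scrambled siRNA. At 30 h it was 303, 1050 and 669 CPM under Foxl2 siRNA and 549, 260.0 and 860.0 CPM under Esr2 siRNA, against 291, 923 and 668 CPM under scrambled siRNA. The ranges of the sum overlapped in every pair of groups, and its lowest library was replicate 1 except under Esr2 siRNA. The 3 libraries of a group stood in the order of the sum in 4 of the 5 groups for Nr2f1, the exception being Foxl2 siRNA at 54 h, and in 4 of 5 for Nr2f2, the exception being Esr2 siRNA. Of all tested genes, 722 (4.84%) kept that order in at least 4 groups. Some matches rest on near ties between replicates 2 and 3 at 30 h. Nr2f1 had 0.889 and 0.866 CPM there under Foxl2 siRNA (45 and 44 counts), and Nr2f2 29.9 and 29.7 CPM under scrambled siRNA. Of the 13 list members tested, 2 fell at 54 h of Foxl2 siRNA, 1 fell at 30 h and none was called under Esr2 siRNA. The shares of all genes called were 38.8%, 13.0% and 4.23%. The order was not particular to theca and stroma markers. The summed smooth muscle and pericyte markers followed it in every group, with 512, 1370 and 951 CPM under scrambled siRNA at 54 h. The summed endothelial markers followed it except under scrambled siRNA at 30 h, with 7.13, 12.1 and 13.4 CPM. The part of any of these cell types in the levels of Nr2f1 and Nr2f2 was not tested.

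**Figure D5:**
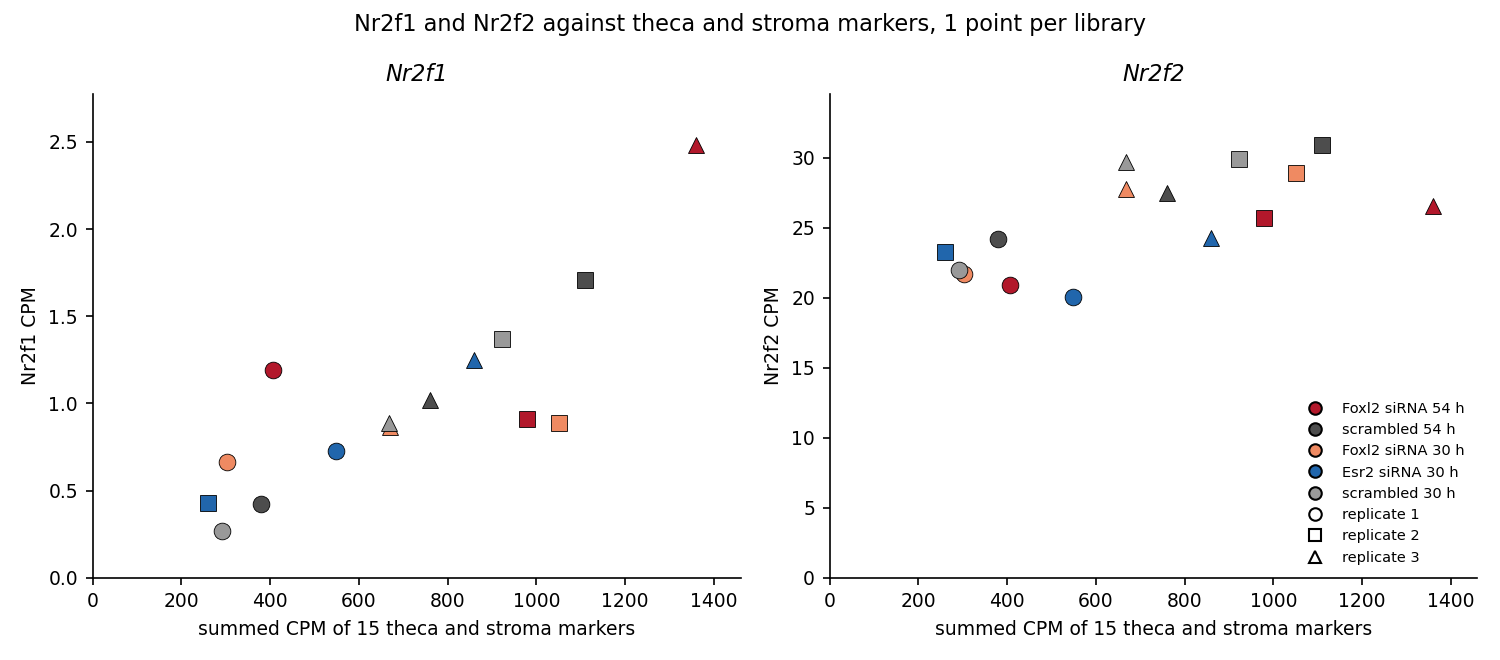
CPM of Nr2f1 and Nr2f2 against the summed CPM of 15 theca and stroma markers, 1 point per library, colour for group and shape for replicate number. The libraries with sums of 260.0 to 407 CPM hold Nr2f1 at 0.268 to 1.19 CPM, and the one with a sum of 1360 CPM holds it at 2.48 CPM. Between them, sums of 978 and 1050 CPM go with 0.910 and 0.889 CPM, and sums of 923 and 1110 CPM with 1.37 and 1.71 CPM.

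Nr2f6 (chr8:71374123-71381960, minus strand), a COUP-TF-related repressor, rose under Foxl2 siRNA at 54 h. It had 89.6, 73.2 and 82.3 CPM, against 67.8, 66.8 and 64.6 CPM under scrambled siRNA. All 3 siRNA libraries lay above all 3 scrambled ones, 81.7 ± 8.24 against 66.4 ± 1.64 CPM on average. The log2 change was 0.30 ± 0.10, 1.23-fold higher, with an edgeR adjusted p of 0.0346. The call was lost without Foxl2 siRNA replicate 1 (0.141) or 3 (0.0788), or without scrambled replicate 1 (0.0629), 2 (0.0766) or 3 (0.0978). At 30 h Nr2f6 had 67.5, 62.0 and 71.9 CPM under Foxl2 siRNA and 81.8, 60.5 and 75.2 CPM under Esr2 siRNA, against 73.9, 73.8 and 66.8 CPM under scrambled siRNA. These groups overlapped, with log2 changes of -0.09 ± 0.10 and 0.02 ± 0.10. The Foxl2 siRNA change at 54 h minus that at 30 h was 0.39 ± 0.15, with an unadjusted p of 0.0187 and an edgeR adjusted p of 0.382.

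Of the exon bases of Nr2f6, 54.4% overlap exons of Ocel1 on the opposite strand. The libraries were made with a kit that keeps strand, but the strand setting of the counting is not given in the sources used here. Ocel1 was measured at 6.20 to 8.84 CPM over the 15 libraries, and its log2 change at 54 h was 0.04 ± 0.13 with an edgeR adjusted p of 0.820. Antisense transcripts overlap 2.4% of the exon bases of Nr2f1 and 7.5% of those of Nr2f2, and were at most 0.366 and 0.277 CPM.

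Nr2c1 (chr10:94148023-94197211, plus strand), which encodes testicular receptor 2, was the steadiest of the 9 genes, its highest library being 1.21 times its lowest. It had 25.0, 28.5 and 23.6 CPM under Foxl2 siRNA at 54 h, against 27.2, 26.9 and 26.3 CPM under scrambled siRNA. The 30 h libraries had 26.3, 24.9 and 26.2 CPM under Foxl2 siRNA and 25.6, 25.4 and 26.7 CPM under Esr2 siRNA, against 24.2, 24.7 and 25.9 CPM under scrambled siRNA. The groups overlapped. The log2 changes were -0.06 ± 0.07, 0.05 ± 0.07 and 0.06 ± 0.07, none of them called by edgeR.

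Between the scrambled libraries, 54 h against 30 h, none of the 9 genes was called, with 0 at an unadjusted p below 0.05 and 0 by DESeq2 or limma-voom. In this comparison 0.00671% of all genes, a single gene, were called, and with the replicate number as a block 3 were, again none of the 9. Nr5a1 averaged 155 ± 7.08 CPM at 54 h and 155 ± 3.25 CPM at 30 h, a log2 change of 0.00 ± 0.06. Nr5a2 averaged 192 ± 15.2 and 183 ± 4.96 CPM, a log2 change of 0.07 ± 0.13. The steadiest gene, Nr2c1, had 26.3 to 27.2 CPM at 54 h and 24.2 to 25.9 CPM at 30 h, with a log2 change of 0.11 ± 0.07 and an unadjusted edgeR p of 0.135. Nr4a1 and Nr4a3 had log2 changes of -0.39 ± 0.30 and -0.33 ± 0.25.

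Other nuclear receptor genes give the scale of these changes. Of 29 tested of a list of 39, 4 rose and 7 fell at 54 h of Foxl2 siRNA, and 2 rose and 4 fell at 30 h. Under Esr2 siRNA 2 fell, including the silenced Esr2. The same comparisons called 38.8%, 13.0% and 4.23% of all tested genes. At 54 h, 2 rose without Foxl2 siRNA replicate 1 or scrambled replicate 2 or 3, and at 30 h 2 fell without Foxl2 siRNA replicate 1 or scrambled replicate 2 or 3. Pparg, the receptor of adipocyte differentiation, averaged 8.44 ± 5.87 CPM under Foxl2 siRNA at 54 h and 64.8 CPM under scrambled siRNA. Its log2 change was -2.93 ± 0.47 at 54 h and -2.16 ± 0.46 at 30 h. Nr1d2 (REV-ERB beta), a repressor of the circadian clock, had log2 changes of -0.51 ± 0.08 and -0.62 ± 0.08 at those times. Vdr, the vitamin D receptor gene, rose by 1.27 ± 0.25 and 0.86 ± 0.25; its call at 30 h was lost without any 1 library except Foxl2 siRNA replicate 3 (adjusted p 0.0510 to 0.137). The retinoic acid receptor gene Rara fell under Esr2 siRNA with a log2 change of -0.35 ± 0.07 and an edgeR adjusted p of 0.0140, lost without Esr2 siRNA replicate 1 (0.0549) or scrambled replicate 1 (0.0644) or 2 (0.0634). Beside these, the log2 changes of Nr5a1 and Nr2f6 were smaller in size than those of Pparg, Nr1d2 and Vdr at 54 h, and that of Nr5a2 lay between those of Nr1d2 and Vdr.

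Directly between Foxl2 siRNA and Esr2 siRNA at 30 h, 6 of the 29 other nuclear receptor genes were higher and 6 lower under Foxl2 siRNA. None of the 9 orphan receptor genes was called, beside 20.4% of all tested genes. Higher were 3 without Foxl2 siRNA replicate 3 or Esr2 siRNA replicate 1 and 2 without Esr2 siRNA replicate 3; lower were 3 without Esr2 siRNA replicate 1 and 2 without its replicate 3. Rara averaged 29.4 ± 1.08 CPM under Foxl2 siRNA and 21.3 ± 1.99 CPM under Esr2 siRNA, a log2 difference of 0.46 ± 0.07. Rorb averaged 1.14 ± 0.48 and 4.19 CPM in the same groups, a log2 difference of -1.87 ± 0.42. Among the NR5A partners, Gata4 averaged 794 ± 57.0 CPM under Foxl2 siRNA and 486 CPM under Esr2 siRNA, a log2 difference of 0.71 ± 0.09.

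The genes most like each member over the 15 libraries were taken from 12626 genes with a mean of at least 1 CPM, by the root-mean-square difference of log2 levels centred on each gene's mean. For Nr5a1 they were Slc39a7 (0.0473), Ncbp1 (0.0535) and Ppm1k (0.0576), where the spread of Nr5a1 around its own mean was 0.141. For Nr5a2, with a spread of 0.289, they were Tubgcp5 (0.129), D16Ertd472e (0.137) and Sfrp4 (0.138). For Nr4a1 the nearest was the immediate early gene Dusp1 (0.212 against a spread of 0.430), and for Nr4a3 they included Nfkbiz (0.233 against 0.365). For Nr2f1 they were Hhipl1 (0.302), Rap1gap2 (0.315) and Myocd (0.330), against a spread of 0.753. For Nr2f2 they included Pxk (0.115 against 0.194), for Nr2f6 Zfp787 (0.0658 against 0.153), for Nr2c1 Zfp148 (0.0381 against 0.0681) and for Nr4a2 Cyb5d1 (0.120 against 0.172). No member was among the 3 genes most like another member.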

How the data were processed

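Messenger RNA of mouse granulosa cells was sequenced in 15 libraries. The authors deposited 1 table of raw read counts per library, listing 24490 genes and 92 ERCC spike-ins, which were left out. Per the submitters' processing notes, TopHat2, bcl2fastq 2.15.0 and DESeq2 were used with mm10; neither a counting tool nor a strand setting is stated there. In 1 library, 15 gene symbols had been turned into dates and were restored from the row order shared with the other tables. A series-wide table was not used.

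Counts were analysed in R 4.3.3 with edgeR 4.0.16: filterByExpr, TMM scaling and 1 quasi-likelihood fit of 5 group means over all libraries, with Benjamini-Hochberg adjustment over 14907 genes and 10 residual degrees of freedom. The standard error is the absolute log2 change divided by the root of F. The fit was tested on simulated data. Levels are TMM-scaled CPM, per kilobase of GENCODE M21 exon (GRCm38) where genes are compared. Alternatives were relative log expression (RLE) and upper-quartile scaling, no filter, only the compared groups, a replicate block, DESeq2 1.42.0, limma 3.58.1 (voom with quality weights) and leaving out each library. The replicate numbers come from the titles; deviations from group means of same-numbered libraries correlated over 0.1 in every pair (0.77, 0.70 and 0.27) only between scrambled siRNA at 54 h and 30 h.

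The members and lists were chosen with earlier results of these data known. All 10 members are named, with the 3 nearest genes in pattern at most and, of each list (other nuclear receptors, NR5A targets, NR5A partners and regulators, coregulators, immediate early genes), up to 2 genes called in each direction with the smallest adjusted p. Of the genes this rule names, 2 are not reported here. Marker lists covered granulosa, theca and stroma, surface epithelium, Sertoli, endothelial, smooth muscle, leukocyte and oocyte genes; called higher and lower at 54 h of Foxl2 siRNA were 3 and 6 of 15 tested granulosa, 1 and 0 of 7 endothelial, 1 and 0 of 8 smooth muscle, 2 and 1 of 5 leukocyte and 0 and 1 of 3 oocyte genes. The 6 granulosa genes called lower include the silenced Foxl2, in a comparison that called 38.8% of all tested genes. Sequencing depth was 45.0 M to 59.6 M gene counts per library, and a floor of 3 counts covers counting error only.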

Additional observations from a re-analysis of the deposited data

How the results depend on the processing

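The directions of Nr5a1 and Nr5a2 against scrambled libraries, and of Nr2f6 at 54 h, held under every alternative run. Members called fell to 0 at 30 h of Foxl2 siRNA with no filter and with only the compared groups; under Esr2 siRNA they became 1 with the replicate block (Nr2f2, adjusted p 0.0475), 2 with DESeq2, 3 with limma-voom and 2 with only the compared groups; limma-voom called 1 in the difference between times, and it (Nr5a2) and the block (Nr2f2, 0.20, adjusted p 0.0452) called 1 each between Foxl2 and Esr2 siRNA. Genes called became 5252 (limma-voom) at 30 h of Foxl2 siRNA, 1109 (DESeq2), 4731 (limma-voom) and 1131 (only compared groups) under Esr2 siRNA, and 0 (RLE), 0 (no filter), 3 (replicate block), 66 (DESeq2), 2693 (limma-voom) and 206 (only compared groups) between scrambled times. They became 198 (DESeq2) and 1056 (limma-voom) for the difference between times, and 5446 (limma-voom) and 1625 (only compared groups) between Foxl2 and Esr2 siRNA. The cause was not tested.

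Without 1 library at a time, genes called ranged from 898 (without scrambled replicate 3) to 3016 (without Foxl2 siRNA replicate 3) at 30 h of Foxl2 siRNA, 4424 to 6752 at 54 h, 238 (without Esr2 siRNA replicate 1) to 1030 (without replicate 2) under Esr2 siRNA, 0 to 0 between scrambled times, 1 to 904 (without Foxl2 siRNA replicate 2 at 54 h) for the difference between times and 1767 to 3647 between Foxl2 and Esr2 siRNA; members called ranged from 0 to 1 at 30 h, 2 to 3 at 54 h and 0 to 1 between Foxl2 and Esr2 siRNA, and were 0 elsewhere.

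Signs turned only for changes that were never called. At 30 h of Foxl2 siRNA they were Nr2f1 with the block (0.05) and, with limma-voom, Nr4a1 (0.15) and Nr4a3 (-0.06); at 54 h Nr4a3 with limma-voom (-0.13); under Esr2 siRNA Nr2f1 with the block and limma-voom (0.05 in both); and between Foxl2 and Esr2 siRNA Nr5a1 with no filter (0.00). Without 1 library the ranges crossed 0 at 30 h for Nr2f1 (-0.46 to 0.47), Nr2f2 (-0.18 to 0.06), Nr4a1 (-0.20 to 0.25) and Nr4a2 (-0.20 to 0.01), at 54 h for Nr4a3 (-0.18 to 0.15) and Nr2f1 (0.00 to 1.07), under Esr2 siRNA for Nr2f1 (-0.51 to 0.46), Nr2f6 (-0.07 to 0.14) and Nr4a2 (-0.02 to 0.28), and between Foxl2 and Esr2 siRNA for Nr5a1 (-0.03 to 0.05).

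Outside the scrambled pair no comparison had all 3 same-numbered pairs correlated over 0.1: 5 of 12 pairs did, and 4 of 12 correlated best with their own number, among them all 3 of Foxl2 against scrambled siRNA at 30 h (0.58, 0.57 and 0.09), a hint from the data and not the design. With the replicate block the calls of Vdr at 30 h of Foxl2 siRNA (0.87, adjusted p 0.0629) and Por under Esr2 siRNA (0.37, adjusted p 0.0604) were lost. Between Foxl2 and Esr2 siRNA, only the compared groups gave 3 higher and 3 lower other nuclear receptor genes, against 6 and 6. Nr4a3 had 23 to 74 and Nr2f1 14 to 129 counts per library; the smallest change that these counts could show was not tested.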
